A study of Mus musculus with 5 samples.

Results

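DNaseI-seq finds DNaseI hypersensitive sites (DHSs), places where chromatin lies open to the nuclease. The regions described here were open at the first 3 of 5 stages of blood development in culture, mesoderm (MES), hemangioblast (HB) and hemogenic endothelium (HE), and were not listed as open in hematopoietic progenitors (HP) or macrophages (MAC). All cells were derived in culture from 1 line of mouse embryonic stem (ES) cells, strain 129, with a GFP reporter of Brachyury (Bry). The undifferentiated ES cells were not analysed here. MES was sorted as Bry.GFP+ and FLK1-, HB as Bry.GFP+ and FLK1+, HE as Bry.GFP+, Tie2+/Ckit+/CD41-, HP as CD41+ and MAC as CD11b+. Each stage gave 1 list of sites, and the MAC list stands for Rep1 and Rep2 together, so n = 1 per stage and no value here carries an error between replicates. The lists hold positions only and do not show the depth behind them. The study's supplement reports the aligned reads of its experiments, which were not used here.

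Members were chosen by their pattern in these same lists. Every site was set to a 500 bp window around its middle, windows sharing at least 25% of their length were chained into regions whatever their stage, and regions with windows of MES, HB and HE and none of HP or MAC were kept. This left 1842 of 68846 regions, or 2.68%. They were 8.39% of the regions open in MES, 7.45% of those in HB and 5.53% of those in HE. Of 13228 regions open in MES, HB and HE, 13.9% were members, and the other 11386 were also open in HP or MAC. That the members are open early and not late is therefore how they were selected and not a result.

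Open chromatin marks promoters and enhancers, where transcription factors bind. Mesoderm first expresses T-box and homeobox factors, part of it becomes Flk1-positive hemangioblast, and hemogenic endothelium is the endothelial intermediate from which blood cells emerge through a change of cell shape and adhesion. TEAD factors are the DNA-binding partners of YAP, the effector of the Hippo pathway. GATA factors act in mesoderm, endothelium and blood, and SOX factors such as Sox17 act in endothelium.

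The sequences below show what such regions look like. They are the central 200 bases of 7 members over 2 kb from a transcription start site (TSS), in introns or between genes, near genes of the lists described further on. They were taken by the number of matches to the letters of TEAD (CATTCCA, or else CATTCCT), those of GATA factors (AGATAA) and those of SOX factors (AACAAAG, or else AACAATG), with ties broken by the width of the sites. Capitals mark those matches, on either strand. All are given 5′ to 3′ on the plus strand of the reference genome GRCm38, each under the gene of the nearest protein-coding TSS.
Krt18 chr15:102025726-102025925: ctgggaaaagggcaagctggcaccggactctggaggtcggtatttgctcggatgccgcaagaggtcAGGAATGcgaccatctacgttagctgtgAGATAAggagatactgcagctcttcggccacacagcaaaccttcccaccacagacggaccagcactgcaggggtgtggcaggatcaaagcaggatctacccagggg
Unc5b chr10:60814794-60814993: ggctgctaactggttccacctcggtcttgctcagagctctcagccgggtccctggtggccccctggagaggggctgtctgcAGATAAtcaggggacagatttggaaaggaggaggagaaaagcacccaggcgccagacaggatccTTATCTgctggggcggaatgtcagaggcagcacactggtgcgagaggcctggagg
Id3 chr4:136135038-136135237: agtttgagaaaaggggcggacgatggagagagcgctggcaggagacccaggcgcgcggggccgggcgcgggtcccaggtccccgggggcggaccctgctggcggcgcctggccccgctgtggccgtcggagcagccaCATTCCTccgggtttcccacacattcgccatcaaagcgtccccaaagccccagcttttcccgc
Nanog chr6:122702728-122702927: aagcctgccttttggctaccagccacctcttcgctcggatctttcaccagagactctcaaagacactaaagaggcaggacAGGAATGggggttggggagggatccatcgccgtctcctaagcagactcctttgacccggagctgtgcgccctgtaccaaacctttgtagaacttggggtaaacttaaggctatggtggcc
Tpm1 chr9:67099326-67099525: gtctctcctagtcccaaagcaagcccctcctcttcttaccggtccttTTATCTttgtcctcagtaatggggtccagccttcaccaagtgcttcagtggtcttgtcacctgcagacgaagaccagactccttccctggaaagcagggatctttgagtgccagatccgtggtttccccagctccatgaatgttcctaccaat
Sox17 chr1:4571700-4571899: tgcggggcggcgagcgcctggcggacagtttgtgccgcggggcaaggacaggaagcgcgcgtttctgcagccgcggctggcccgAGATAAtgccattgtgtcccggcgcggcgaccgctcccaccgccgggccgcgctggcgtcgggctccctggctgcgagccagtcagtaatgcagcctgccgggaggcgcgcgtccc
Myh9 chr15:77827601-77827800: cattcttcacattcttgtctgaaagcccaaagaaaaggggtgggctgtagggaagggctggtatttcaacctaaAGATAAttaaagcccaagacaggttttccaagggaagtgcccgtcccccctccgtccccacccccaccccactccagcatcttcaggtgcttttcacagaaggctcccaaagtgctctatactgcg
The region near Krt18, which encodes an epithelial keratin, held 1 TEAD and 1 GATA match, and the region in Unc5b, which encodes a netrin receptor, held 2 GATA matches on opposite strands. The regions near Id3 and Nanog held 1 TEAD match each. Those near Tpm1 and Sox17 and the one in Myh9 held 1 GATA match each. None of the 7 held a SOX match. Such matches were uncommon in windows this short. Of 64 members that the rule could have printed, 18 held at least 1 match and 2 held more. Over all members beyond 2 kb, 12.5% had a TEAD match in the central 200 bases against 10.1% of all 52345 regions beyond 2 kb. For GATA the shares were 7.50% and 12.7%, and for SOX 7.23% and 8.85%. A match is a description of the bases and not evidence that a factor binds there.

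The labels were first compared with the promoters of marker genes, taking a gene as open where a site came within 1 kb of any of its TSSs. All 5 mesoderm markers (T, Mesp1, Eomes, Pdgfra and Mixl1) were open in MES and in HB. In HE 4 of them were open, in HP 0 and in MAC 1. All 5 markers of HE (Tek, Kit, Cdh5, Sox17 and Gfi1) were open in HE. Kit, Sox17 and Gfi1 were open in HB too, Kit also in MES, and Kit and Sox17 in HP. The 4 macrophage markers were all open in MAC, and Cd68 alone was open in the other stages. Of the 4 HP markers, Itga2b, which encodes CD41, and Runx1 were open in HP, whereas Gfi1b and Myb had no listed site there. Runx1 was open in all 5 stages. In HE 3 of these markers were open, namely Itga2b, Myb and Runx1, against 2 in HP. Kdr, which encodes Flk1, was open in all 5 stages, also in the FLK1- sort. The other hemangioblast markers, Tal1 and Etv2, were open in HB, HE and HP, with Tal1 also open in MAC and Etv2 in MES.

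Members differed from one stage to the next in how wide the listed site was. A member measured 657.5 bp at the median after chaining, with a range of 500 to 1400 bp, and 1 member held more than 1 site of a stage. The site of MES had a median width of 600 bp (100 to 2400 bp), that of HB 900 bp (100 to 2500 bp) and that of HE 1100 bp (300 to 3300 bp). The HE site alone was the widest in 1243 members (67.5%), the HB site in 350 (19.0%) and the MES site in 50 (2.71%). The HE list as a whole was wider too, with a median of 1200 bp against 800 bp in MES and 900 bp in HB. Ranks within a list remove that difference. A width rank is the share of a stage's list that is narrower than the site. In sorted populations a site open in few cells and a site weakly open in all cannot be told apart.

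**Figure D1:**
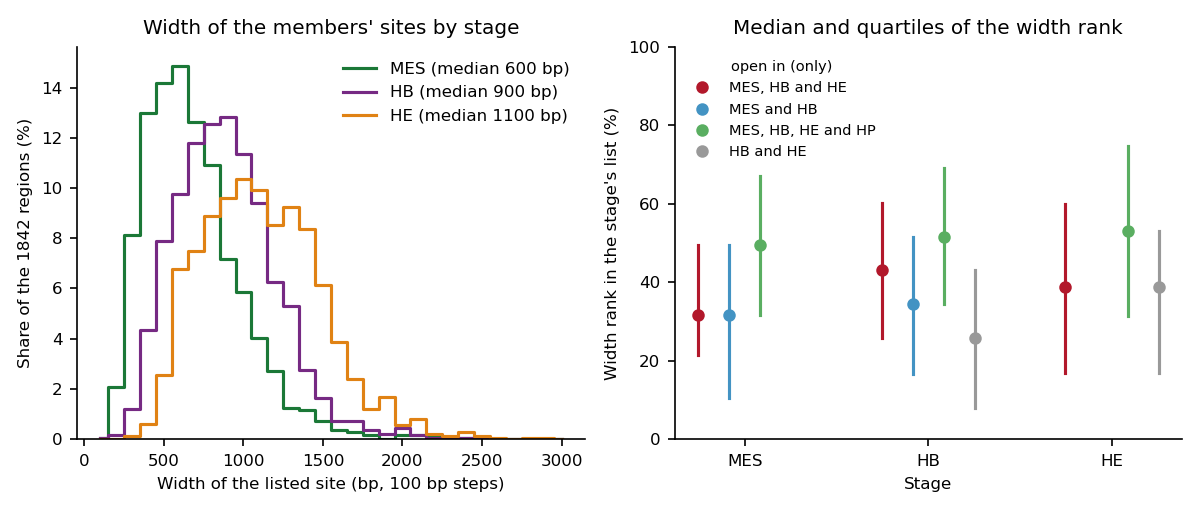
Left, the share of the 1842 members (%) by the width (bp) of their site in MES, HB and HE. Right, the median (point) and quartiles (line) of the width rank (%) of the same sites and of the sites of 3 related sets of regions. The members' widths shift from MES to HE, whereas their median ranks lie at 31.7, 43.0 and 38.8.

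By rank, the members' sites lay at a median of 31.7 in MES (quartiles 21.5 and 49.6), 43.0 in HB (25.7 and 60.2) and 38.8 in HE (16.9 and 60.0). The rank was higher in HE than in MES in 940 members (51.0%) and lower in 902 (49.0%), so the directions were nearly balanced. Across members, Spearman's rho of the ranks was 0.569 between MES and HB, 0.386 between HB and HE and 0.312 between MES and HE. These are descriptions over regions of the same 3 lists. The middles of the MES and HB sites lay 63 bp apart at the median, those of HB and HE 108 bp and those of MES and HE 121.5 bp.

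A further 3 sets of regions differ from the members by 1 stage, namely those open in MES and HB only (3250), in MES, HB, HE and HP only (1601) and in HB and HE only (1316). Regions that stayed open into HP had wider sites, with median ranks of 49.6 in MES, 51.5 in HB and 53.0 in HE. Regions of MES and HB alone ranked at 31.7 and 34.5. Widths belong to the lists from which the members were chosen, so these ranks are given without a test.

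The rule has a threshold, and few regions were close to it. Among the members, 11 had a window of HP or MAC that overlapped theirs by 20% to just under 25%, the largest overlap being 122 bp. Among the 11386 regions kept out, 11 were joined to HP or MAC by an overlap of 25% to just under 30%. The windows are shorter than many sites. The deposited intervals themselves overlapped 29 members in HP and 31 in MAC, together 54 members (2.93%). Over all 1842 members, these included, the nearest HP site was 24.7 kb away at the median and the nearest MAC site 15.1 kb. An HP site lay within 10 kb of 28.6% of members and a MAC site within 10 kb of 39.1%. Regions of MES and HB alone had much the same gaps, 26.7 kb to HP and 15.6 kb to MAC. Deposited HE intervals, however, overlapped 9.79% of those regions, and the nearest HE site was 9.85 kb away at the median. The HP list was the shortest, with 17734 sites, where MES had 21949, HB 24729, HE 33305 and MAC 37456. When each list was held to its 17734 widest sites, 729 regions had the members' pattern.

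Members lay at promoters more often than regions of MES and HB only or of HB and HE only. The TSS used was that of curated protein-coding RNAs. Of the members, 736 (40.0%, 95% Wilson interval 37.7 to 42.2%) lay within 2 kb of one, 509 (27.6%) between 2 and 20 kb (proximal) and 597 (32.4%) farther away (distal). The share at promoters was 19.3% for MES and HB, 21.1% for HB and HE, 50.2% for MES, HB, HE and HP, and 23.96% over all regions. It was 16.2% for HE only and 82.4% for regions open in all 5 stages. Among these sets the share thus rose with the number of open stages, and the members lay within that order. The members' share was higher by 20.6 percentage points than that of MES and HB (interval 16.4 to 24.9) and by 18.9 points than that of HB and HE (13.7 to 23.9), and lower by 10.2 points than that of regions still open in HP (difference -10.2, interval -15.6 to -4.77). These intervals are Newcombe's, widened over 36 comparisons of 12 features with 3 sets. They cover the counting of regions only, since regions of 1 list are not replicates of a stage. With the TSSs of all annotated transcripts 49.1% of members counted as promoters.

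The gene part at the centre differed as well. An intron held 667 members (36.2%) and the space between genes 548 (29.8%). The untranslated part of an exon held 380 (20.6%), a coding exon 160 (8.69%) and an exon of a noncoding gene 87 (4.72%). Centres in untranslated exons were more frequent than in regions of MES and HB by 10.5 points (interval 7.10 to 14.0) and than in those of HB and HE by 9.23 points (5.02 to 13.3). They were less frequent than in regions still open in HP, with a difference of -6.17 points (-10.8 to -1.53). Introns went the other way, with differences of -8.13 points from MES and HB (-12.6 to -3.55), -9.15 points from HB and HE (-14.8 to -3.49) and 6.92 points from regions still open in HP (1.78 to 12.0). Centres between genes were fewer and those in coding exons more than in MES and HB (-6.87 and 3.82 points), and neither was called against the other 2 sets. Noncoding exons were called against none.

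CpG-rich members, with a GC share of at least 0.5 and an observed to expected CpG ratio of at least 0.6 in the central 500 bp, numbered 606 (32.9%, interval 30.8 to 35.1%). The share was 15.3% in MES and HB, 18.8% in HB and HE, and 41.8% in MES, HB, HE and HP. It was 8.47% in HE only and 78.4% in all 5 stages, so it too rose with the number of open stages. Promoter members were CpG-rich in 61.4%, and the intervals of the differences from the other sets' promoters held 0. Away from promoters the members differed. Of 1106 members beyond 2 kb, 154 (13.9%) were CpG-rich, against 5.15% in MES and HB (8.77 points higher, interval 5.39 to 12.6) and 7.603% in HB and HE (6.32 points higher, 2.03 to 10.6). Regions open in MES, HB, HE and HP had 14.9%, those of all 5 stages 30.3% and those of HE only 2.09%.

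**Figure D2:**
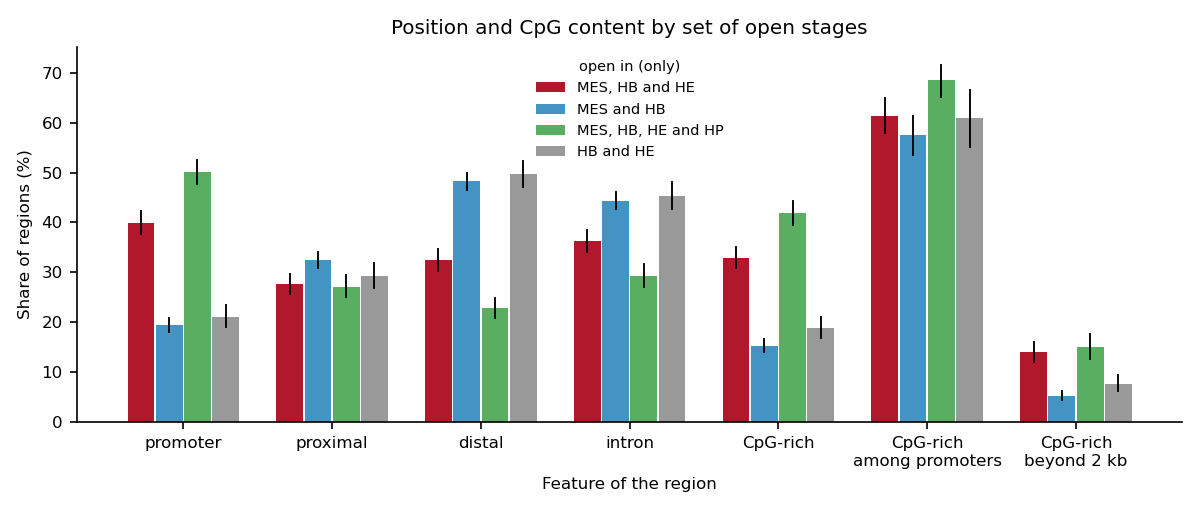
Share of regions (%) by position and CpG content for the members (MES, HB and HE) and 3 sets that differ by 1 stage; black lines are 95% Wilson intervals. At promoters the members (40.0%) lie between regions of MES and HB only (19.3%) and regions still open in HP (50.2%).

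The 736 promoter members belonged to 733 genes, 3.49% of 21000 protein-coding genes. Sites of HP came within 1 kb of another or the same TSS in 79 of these genes (10.8%) and sites of MAC in 99 (13.5%), and 606 (82.7%) had neither. Over all protein-coding genes 50.1% had such a site in HP and 50.2% in MAC. The rule itself selects promoters without HP or MAC windows, so nothing is read from that gap. Site widths at promoter members had a median rank of 53.0 in HE against 31.4 in HE beyond 2 kb, and of 41.0 against 31.7 in MES.

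Among the 733 genes were factors of the primitive streak and of the cardiac and mesenchymal lineages. Mesp1, which marks the earliest cardiovascular mesoderm, had sites of 1000 bp in MES, 1300 bp in HB and 1300 bp in HE. Mixl1, a homeobox gene of the primitive streak, had 1100, 1400 and 1200 bp. Foxc2, a forkhead factor gene, had 800, 700 and 800 bp. Nodal, which encodes a ligand that induces mesoderm, had a member 1190 bp inside the gene with sites of 400, 900 and 1300 bp. Its site widened at each stage, whereas those of Mixl1 and Foxc2 did not. Cdh2, the N-cadherin gene, had the same course with 700, 1700 and 2200 bp and so did Twist2, a mesenchymal factor gene, with 400, 900 and 1500 bp. Cdh1, the E-cadherin gene, had widths of 1400, 1300 and 1400 bp, which by rank fell from 95.3 in MES to 78.8 in HB and 60.0 in HE. Of 22 genes of the epithelial to mesenchymal switch 5 had a promoter member, of 22 mesoderm factors 4 and of 22 pluripotency factors 4, beside 3.49% of all genes. The guidance list had 4 of 35, the collagen and laminin list 3 of 26 and the actin and adhesion list 3 of 32, while the 9 remaining lists had 0 to 2 each.

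Exact matches to 18 motifs, read on either strand, were counted in the middle 500 bp of each of the 1106 members beyond 2 kb and in the same window of the related sets. The members' shares are set beside those over all 52345 regions beyond 2 kb, as a description. These include the members and 9884 regions open in HE only. Base composition differs between them, with a median GC content of 54.0% in the members and 48.6% over all regions, and the part of this in the shares was not tested. The members had the higher share for the CTCF core (AGGGGGC, else AGGTGGC or lastly AGATGGC), with 39.1% against 27.8%, for KLF/SP (GGGCGGG, or else GGGTGTG), with 29.9% against 20.2%, for the E-box CAGCTG, with 36.7% against 32.3%, and for TEAD, with 24.1% against 21.6%. They were slightly above all regions in TCF/LEF (ATCAAAG, 9.04% and 7.78%), T-box (AGGTGTGA, or else AGGTGTGG, 6.78% and 5.49%), OTX/GSC (GGATTA, 15.7% and 14.9%) and the octamer ATGCAAAT (3.16% and 2.68%). They had the lower share for AP-1 (TGAGTCA, or else TGACTCA), with 8.68% against 21.5%, for RUNX (TGTGGT), with 27.0% against 37.3%, for PU.1 (GAGGAAG), with 20.9% against 28.6%, for GATA, with 20.3% against 27.3%, for MEIS (TGACAG), with 32.4% against 38.6%, and for CEBP (TTGCNNAA), with 16.7% against 22.8%. ETS (CCGGAAG, or else CAGGAAG) was at 31.8% and 34.6%, SOX at 17.7% and 20.3%, the E-box CATCTG at 36.0% and 37.3%, and forkhead letters (TGTTTAC) at 6.06% and 7.53%. In MES and HB, in MES, HB, HE and HP, and in HB and HE, the CTCF core was at 39.7%, 40.7% and 33.6%. In the same order KLF/SP was at 31.8%, 36.1% and 24.45%, and the E-box CAGCTG at 36.7%, 37.8% and 33.5%. AP-1 was at 9.88%, 13.9% and 12.3%, and RUNX at 30.9%, 31.5% and 29.8%. PU.1 was at 19.4%, 23.8% and 21.9%, and CEBP at 17.0%, 13.5% and 16.75%. The gaps of these motifs were thus not particular to the members, while for GATA and MEIS not all 3 sets lay on their side.

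Each motif was also read backwards, with the same bases in the opposite order. In the members the motif was found more often than its backward letters for TEAD (24.1% against 8.14%), GATA (20.3% against 10.6%), TCF/LEF (9.04% against 4.25%) and the E-box CATCTG (36.0% against 11.6%). For RUNX (27.0% against 24.2%) and T-box (6.78% against 5.88%) the shares were closer, and forkhead letters were found less often than their backward form (6.06% against 7.41%). The backward letters of GATA were also rarer in the members than over all regions, 10.6% against 19.0%, a gap wider than that of the motif. The backward letters are a poor control for some motifs. Those of the E-box CAGCTG, the CTCF core, CEBP and the octamer hold a CpG that the motif lacks, and 1 of the 2 KLF/SP words reads the same in both orders, so nothing is read from the backward shares of these 5. Of ETS, 1 of 2 words holds a CpG that its backward form lacks, which limits that control too. The ETS letters share their last 5 with PU.1, and those of SOX may share their last 5 with TCF/LEF, but no stretch can match both members of a pair at the same place.

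**Figure D3:**
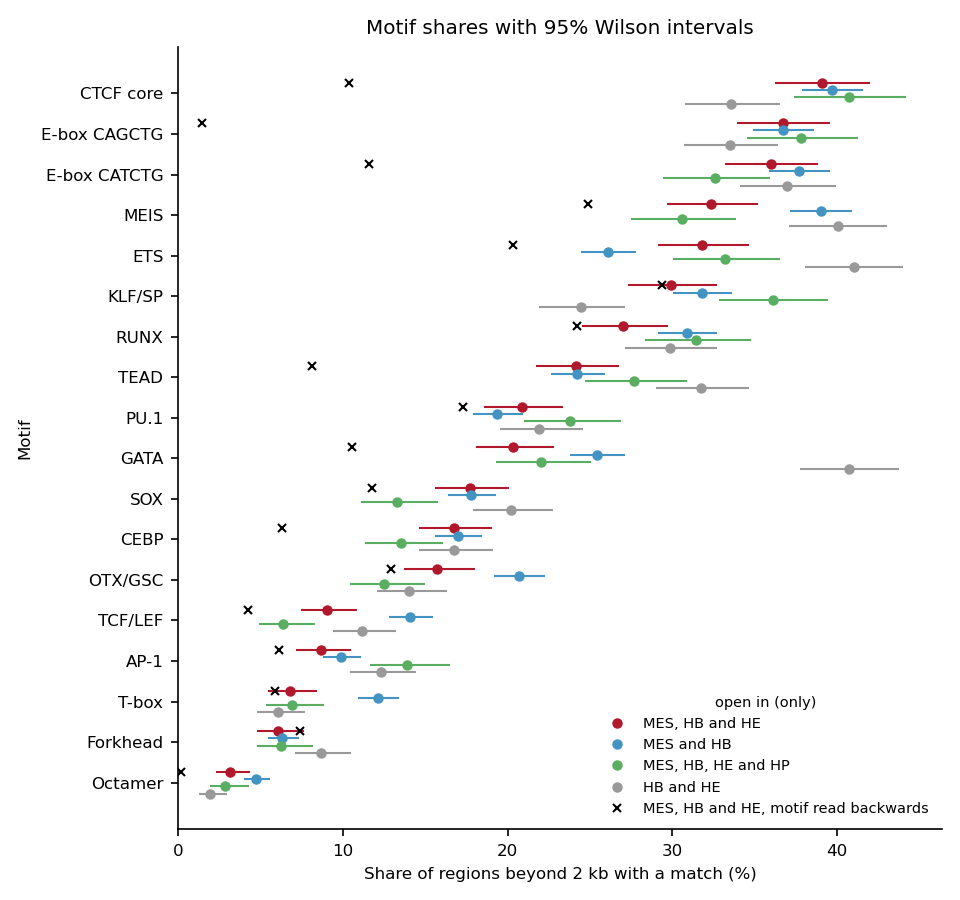
Share of regions beyond 2 kb (%) with a match to each of 18 motifs in the central 500 bp, for the members and 3 related sets, with 95% Wilson intervals; crosses give the members' share for the motif read backwards, which is no control for KLF/SP, the E-box CAGCTG, the CTCF core, CEBP and the octamer. GATA is at 20.3% in the members and 40.7% in regions of HB and HE.

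The clearest difference was in GATA. The members' 20.3% (interval 18.1 to 22.8%) compared with 40.7% in regions open in HB and HE but not MES, a difference of -20.4 points (interval -26.7 to -13.8, widened over 54 comparisons of motif and set). This call was kept in 9 of 9 alternative settings, and the backward letters differed by -2.51 points (-7.21 to 2.12). ETS was lower as well, 31.8% against 41.0% (-9.17 points, -15.9 to -2.29), and this call was kept in 8 of 9 settings. TEAD was lower, 24.1% against 31.8% (-7.62 points, -14.0 to -1.20), and so was MEIS, 32.4% against 40.0% (-7.67 points, -14.5 to -0.797). The TEAD call was kept in 5 settings and the MEIS call in 6. The backward letters moved by 2.54 points for ETS, 1.88 for TEAD and -0.0634 for MEIS. Regions open in MES, HB and HE thus held a match to each of these 4 motifs less often than regions of HB and HE only.

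Against regions of MES and HB only, the members were lower in 5 motifs and higher in 1. All 6 calls were kept when regions overlapped by a deposited interval of an absent stage, HE included, were left out. T-box matches were in 6.78% of members and 12.1% of those regions (-5.35 points, interval -8.44 to -1.81), a call kept in 7 of 9 settings. T-box factors such as T and Eomes act in early mesoderm. TCF/LEF, read by the Wnt pathway, was at 9.04% against 14.1% (-5.03 points, -8.47 to -1.14), OTX/GSC at 15.7% against 20.7% (-4.94 points, -9.22 to -0.258) and MEIS at 32.4% against 39.0% (-6.65 points, -12.1 to -0.920), each kept in 6 settings. GATA was at 20.3% against 25.4% (-5.09 points, -9.81 to -0.0193), a call kept in 5 settings. ETS was higher in the members, 31.8% against 26.1% (5.74 points, 0.416 to 11.3), a call kept in only 3 of 9 settings. For 3 of these 6 motifs the backward letters moved the same way and most of the distance, by -4.31 points for OTX/GSC (-8.25 to 0.0579), -3.38 points for GATA and 3.22 points for ETS, so these calls were not shown to be particular to the motif's order of bases. The backward letters of TCF/LEF (0.0161 points) and T-box (-0.416 points) hardly moved, and those of MEIS went the other way (2.94 points). For TEAD no difference was called, with 24.1% and 24.2% (-0.0771 points, -4.999 to 5.15).

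Regions that stayed open into HP were hard to tell from the members by these letters. Of 18 motifs 1 was called, AP-1, with 8.68% in the members and 13.9% in those regions (-5.23 points, -10.4 to -0.419), kept in 5 of 9 settings. The backward letters of AP-1 differed by -0.243 points. TEAD was at 24.1% and 27.7% (-3.55 points, -10.4 to 3.11), RUNX at 27.0% and 31.5% (-4.42 points, -11.5 to 2.52), and SOX at 17.7% and 13.3% (4.44 points, -1.24 to 9.83). Intervals of this width do not show that the sets are alike.

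Base composition moved with the sets. Beyond 2 kb the median GC content was 54.0% in the members, 52.2% in MES and HB, 51.2% in HB and HE, and 54.6% in MES, HB, HE and HP. Among regions with a GC share of 0.45 to 0.6 only, 8 of the 11 calls were kept. GATA against HB and HE was then -19.4 points and T-box against MES and HB -5.71 points. The calls of TEAD against HB and HE (-6.75 points) and of GATA and OTX/GSC against MES and HB (-4.08 and -4.13 points) were lost.

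Within the members the motifs were not spread alike around the centre. The density of TCF/LEF letters in the central 200 bp was 1.97 times that of the bases 300 to 500 bp from the centre, from 59 and 60 matches. The ratio was 1.82 for TEAD (161 and 177 matches), 1.76 for the CTCF core (260 and 296), 1.71 for KLF/SP (215 and 252) and 1.64 for the E-box CAGCTG (225 and 275). ETS stood at 1.52. GATA was at 0.734 (91 and 248), RUNX at 0.890 and OTX/GSC at 0.905, so that GATA letters were sparser at the centre than beside it. The centre here is the middle of listed intervals and not a measured summit. The ratios have no baseline from backward letters or other sets, and the part of base composition in them was not tested.

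**Figure D4:**
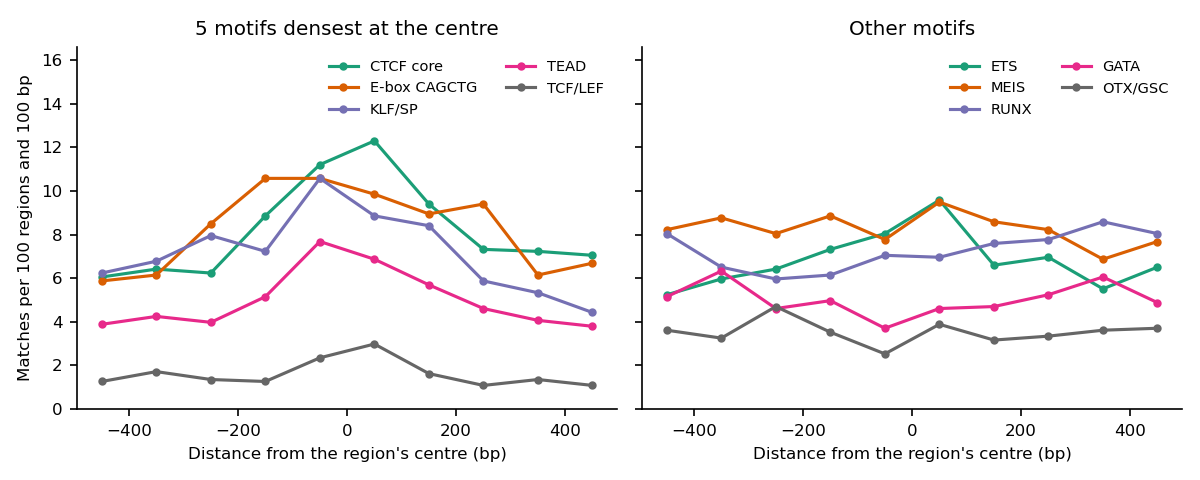
Matches per 100 members beyond 2 kb and 100 bp, by distance from the region's centre (bp). Left, the 5 motifs with the highest ratio of central to outer density, from 1.97 for TCF/LEF to 1.64 for the E-box CAGCTG; right, 5 others, among which GATA dips at the centre (ratio 0.734).

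The members were also split by TEAD. Of the 267 members with a TEAD match 53 (19.9%) also had GATA, against 20.5% of the 839 without. For SOX the shares were 19.85% and 17.04%, for ETS 33.0% and 31.5%, and for RUNX 33.0% and 25.2%. Taking TEAD, GATA, SOX and ETS together, 398 members (36.0%) had a match to none, 433 (39.2%) to 1, 220 (19.9%) to 2, 53 (4.79%) to 3 and 2 to all 4.

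Members were spread over the genome and over many genes. The nearest other member was 222 kb away at the median, and 102 members (5.54%) had one within 10 kb. With each region given to the gene of the nearest protein-coding TSS within 100 kb, 1697 members went to 1548 genes, 7.37% of 21000. Regions of MES and HB reached 10.5% of genes, those of MES, HB, HE and HP 6.77% and those of HB and HE 4.90%. A second member was present at 133 genes, of which 15 had at least 3. Many of these genes had other open chromatin as well. Of the 1548, 884 (57.1%) also had a region open in HP within 100 kb, and 1036 (66.9%) one open in MAC. Over all protein-coding genes the shares were 53.8% and 62.8%, and among the 16042 genes with a region of any kind, which may be the HP or MAC region itself, 70.4% and 82.2%. The members' shares lie between both baselines, so no direction is read from them.

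Cxxc5, which encodes a CXXC zinc-finger protein, had the most, with 4 members. Its promoter region had sites of 1600, 1500 and 1700 bp in MES, HB and HE, and a region 34.0 kb downstream on chromosome 18 had 2400, 2400 and 2000 bp, wider than 99.97% of the MES list, 99.96% of the HB list and 96.0% of the HE list. The other genes named by number had 3 members each, ties being broken by symbol. Hand2, a factor of heart and limb mesoderm, had 1 that lay 8.31 kb upstream and 2 that lay 12.8 and 20.1 kb downstream. The first had 600, 300 and 1500 bp, the second 1200, 1000 and 1400 bp and the last 600, 1200 and 1600 bp. Each was widest in HE in bp, but by width rank the second stood highest in MES, at 84.9 against 51.5 in HB and 60.0 in HE.

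Pou3f1, a POU factor gene, had members 81.4, 43.3 and 10.98 kb upstream, which held 2, 1 and 0 TEAD matches. Tgfbi, which encodes a secreted matrix protein, had 1 at its promoter with 300, 600 and 900 bp and 2 others whose HE sites both measured 1600 bp, with 1, 2 and 3 ETS matches in order along the gene. Dmrtb1, Kcnip3, Septin8 and Syt13 were named as well, and none of their sites exceeded 1600 bp. None of Pou3f1, Septin8 or Tgfbi had a region of the 3 related sets.

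The 10 members beyond 2 kb with the highest mean width rank had their nearest protein-coding TSS at Klf12, Creb3l1, Galnt17, Cxxc5, Adgrl1, Rnase12, Rps16, Id3, Tenm3 and Actg1. The region near Id3, an inhibitor of basic helix-loop-helix factors downstream of BMP, lay 8.68 kb upstream at chr4:136134858-136135417 with sites of 1500, 1600 and 1800 bp, 2 TEAD matches and 1 TCF/LEF match. The region near Actg1, which encodes cytoplasmic gamma actin, had 1400, 1600 and 1800 bp. Deposited HP intervals reached into the regions near Klf12, Creb3l1, Rnase12 and Rps16, and MAC intervals into those near Creb3l1 and Rnase12. For these 4, the 500 bp windows missed an overlap that the wide intervals have. The other 6 lay between 3.80 and 94.2 kb from the nearest HP site.

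The genes near members were then compared with 15 gene lists. Among the 22 primitive streak and mesoderm factors, 9 (40.9%) had a member, beside 7.37% of all genes. All 22 had a region of some pattern within 100 kb, and among all genes with such a region 9.65% had a member. The same list had 17 genes with a region of MES and HB, 5 with one of MES, HB, HE and HP, and 2 with one of HB and HE. Of T, the Brachyury gene, the promoter was not open in HE, but a member lay 25.3 kb upstream with sites of 1000, 500 and 800 bp, 1 TEAD match and 1 T-box match. Evx1, a homeobox gene of the posterior streak, had members 22.3 and 7.28 kb upstream, both CpG-rich, with 900, 1200 and 1400 bp and with 900, 1100 and 900 bp. Foxc1 had 1 on each side of its TSS, Snai1 had 2, 5.38 and 40.3 kb downstream, and Gsc 1 that lay 32.8 kb downstream.

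Of 22 pluripotency factors 7 (31.8%) had a member, while 12 had a region of MES and HB and 3 one of either other set. Nanog had 1 at its promoter, with 1100, 800 and 1000 bp, and 1 that lay 4.66 kb upstream at chr6:122702498-122703158, with 900, 1300 and 1000 bp and 3 TEAD matches. The Otx2 site narrowed, from 1100 bp in MES over 800 bp in HB to 700 bp in HE. At Esrrb the promoter site went the other way, with 400, 800 and 1200 bp. Klf4 and Sall4 had a member each at a distance, and Zic2 had 1 at its promoter, measuring 1600, 1500 and 1500 bp.

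Of 14 cardiac mesoderm factors 6 (42.9%) had a member. Here the regions of HB and HE reached 7 genes, those of MES and HB 4 and those of MES, HB, HE and HP 3. Beside Hand2 the genes were Gata4, with a region 5.00 kb downstream in its intron (1000, 1100 and 900 bp), Gata5 at its promoter (700, 1000 and 900 bp), Smarcd3, Tbx20 and Tbx5. The Tbx5 region, 30.8 kb upstream, lay 132 kb from the nearest HP site and had 700, 1000 and 1100 bp. No GATA letters were found in the central 500 bp of the 8 members of these 6 genes. Over all members beyond 2 kb the share was 20.3%, so nothing is read from so few regions.

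In the Hippo pathway more genes had a region that stayed open into HP than a member. Of its 24 genes 4 (16.7%) had a member and 13 (54.2%) had a region that stayed open into HP. Tead4 had a member at its promoter, with 900, 1200 and 1800 bp and 2 TEAD matches, and its promoter had no site in HP or MAC. Promoters of Tead1, Tead2, Tead3 and Yap1 were open from MES to HP and not in MAC. The member of Tead1 lay 64.4 kb downstream, with 1000, 1200 and 700 bp. Amotl1 and Amotl2, which encode angiomotins that hold YAP outside the nucleus, had 1 each. The Amotl1 promoter site went from 300 bp in MES over 800 bp in HB to 1900 bp in HE, while the Amotl2 region had 900, 700 and 700 bp. Of 18 target genes of YAP and TEAD 6 (33.3%) had a member, namely Dlc1 with 2, Amotl2, Arhgef17, Nuak2, Ptpn14 and Tns3. Those of Arhgef17, Ptpn14 and Tns3 held 1 TEAD match each, and those of Dlc1, Amotl2 and Nuak2 held none. Over all members beyond 2 kb, 24.1% held a TEAD match.

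Of 26 BMP, Smad and Id genes 5 (19.2%) had a member, against 12 with a region of MES and HB, 7 with one that stayed open into HP and 8 with one of HB and HE. Msx2, a homeobox target of BMP, had 2, both CpG-rich and both narrower in HE (1000 and 1100 bp) than in HB (1200 and 1400 bp). The Id1 member, 3.13 kb downstream, narrowed from 1000 bp in MES and HB to 600 bp in HE. Nog, which encodes the BMP antagonist noggin, and Smad7, an inhibitory Smad, had 1 each.

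In the Wnt and Notch lists more genes had a region of MES and HB only than a member. That set is larger and reached 10.5% of all genes, where the members reached 7.37%, and the difference was not tested. Of 31 Wnt genes 7 (22.6%) had a member and 16 (51.6%) a region of MES and HB. The 7 were the ligands Wnt3 and Wnt5b, Rspo3, which encodes a secreted enhancer of Wnt signals, the nuclear factors Lef1, Tcf7l2 and Sp5, and Axin2, a feedback inhibitor. At Rspo3 the promoter site was narrow, with 300, 300 and 500 bp. A deposited MAC interval overlapped the Tcf7l2 region. Of 24 Notch genes 4 (16.7%) had a member and 12 (50.0%) a region of MES and HB. The 4 were the ligand Dll1, the receptor Notch3, Lfng, which encodes a glycosyltransferase acting on Notch, and the target Hey1 with 2 members.

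Of 22 genes of the epithelial to mesenchymal switch 9 (40.9%) had a member, with 14 regions among them. Regions of MES and HB reached 6 of these genes, those of MES, HB, HE and HP 5 and those of HB and HE 2. Besides the promoters named above, Cdh1 had a second member in its intron 16.7 kb downstream with 1300, 1400 and 1400 bp. Krt8 and Krt18, which encode a pair of simple epithelial keratins, had 3 between them, and the Krt18 region had the widest sites of the 3 with 1300, 1400 and 1600 bp. Cdh11, a mesenchymal cadherin gene, had 2 that were narrow in MES (200 and 400 bp) and measured 800 bp in HE. Zeb1 had 1 at its promoter. Genes of both the epithelial and the mesenchymal state were thus among the 9.

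Of 35 guidance genes 10 (28.6%) had a member, with 13 regions. They included genes of the receptors Unc5b, Robo1, Ephb2, Ephb3, Epha1 and Plxnb2 and of the ligands Efnb2 and Sema3c. The Unc5b region printed above, 16.7 kb downstream in its intron, had 1100, 1800 and 1500 bp. At Sema3c the promoter site went from 400 over 900 to 1500 bp. Of 26 collagen and laminin genes 7 (26.9%) had a member, all of them collagens except Hspg2, which encodes perlecan. The promoter member of Col18a1 widened from 700 over 1400 to 1900 bp. That of Col4a1, which encodes a basement membrane collagen, had 1400, 900 and 2000 bp. Of 32 actin and adhesion genes 8 (25%) had a member, with 12 regions. Tpm1 had 3, all over 34 kb upstream, and the farthest went from 300 bp in MES over 500 bp in HB to 1600 bp in HE. The Tpm4 promoter had 2000, 2000 and 1900 bp, and a deposited HP interval reached into it.

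The endothelial and macrophage lists had 2 genes and 1 gene with a member. Of 27 endothelial genes 2 (7.41%) had a member, about the share over all genes, while regions of MES and HB and those of HB and HE each reached 7. The 2 were Cldn5, an endothelial tight junction gene, at its promoter with 1100, 900 and 1400 bp, and Sox17, which is needed in hemogenic endothelium, with a region 74.4 kb upstream of 800, 900 and 1500 bp. Of 25 blood transcription factors 4 (16.0%) had a member, none at a promoter, namely Cbfb, the partner of RUNX factors, Cebpb, Gfi1 and Meis1. The Gfi1 region lay 36.1 kb downstream and had 600, 400 and 1000 bp. Of 30 macrophage genes 1 (3.33%) had a member, Apoe, whose promoter had 1100, 1400 and 1700 bp. All 27 genes of the endothelial list and all 30 of the macrophage list had a region of some pattern within 100 kb.

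**Figure D5:**
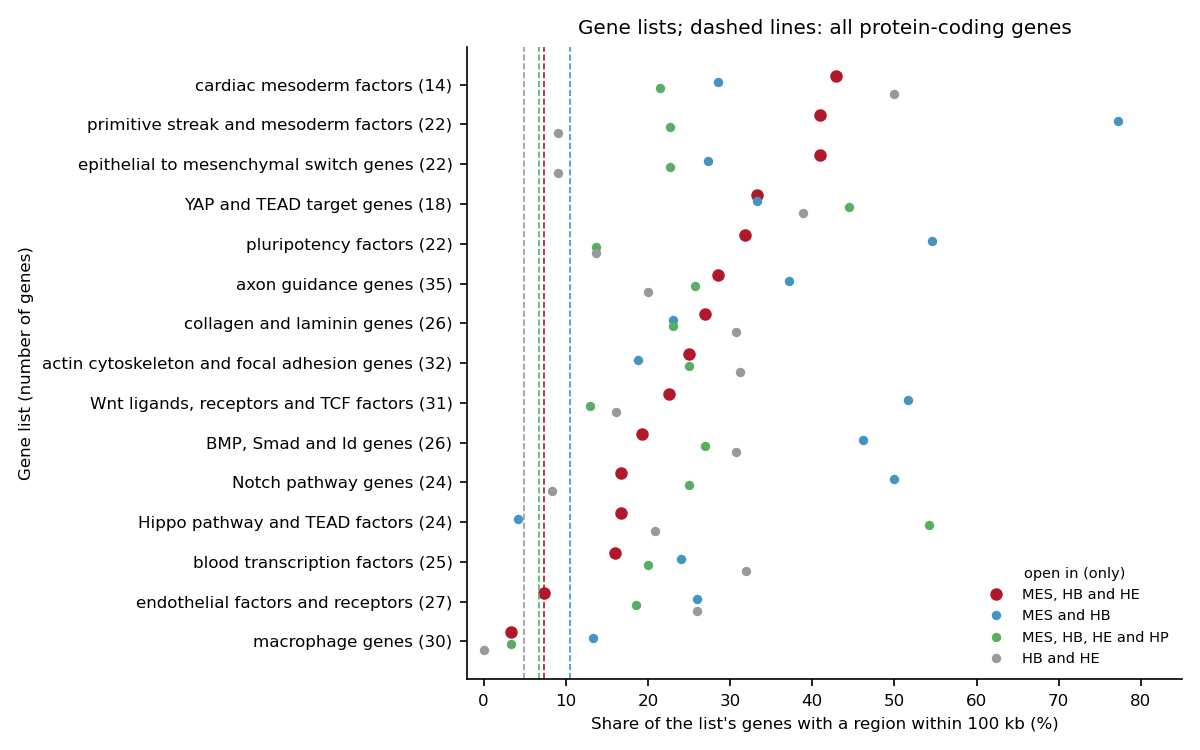
Share of each list's genes (%) with a region within 100 kb, for the members (large red points) and 3 related sets; the number of genes in a list stands in brackets and dashed lines give the share over all 21000 protein-coding genes. The members reach 42.9% of cardiac mesoderm factors and 3.33% of macrophage genes, against 7.37% of all genes.

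The gene lists are of unequal size and their genes have unequal amounts of flanking sequence, so the shares describe these lists and were not tested. The nearest TSS need not belong to the gene that a region acts on.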

How the data were processed

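DNaseI-seq sites were listed at 5 stages, 1 list each, and samples were grouped by the sorted population in the labels. Per the study's methods and the labels, the authors trimmed reads with CutAdapt, aligned them to mm10 with Bowtie, kept unique reads without duplicates and called sites with DFilter in 100 bp bins, for which versions are not given in the sources used here. The deposited lists hold chromosome, start and end only, with no signal, p-value or read count, and every width is a multiple of 100 bp. The DNase I dose was chosen for each digestion, and a deeper or more strongly digested library can list more or wider sites, which these files cannot show.

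From there, site middles stood in for summits, and windows of 500 bp were chained. The study chained windows around summits with those of its ES cells included, and here middles of 5 lists were used. Positions, gene parts and bases were read from the RefSeq annotation of GRCm38, the same build as mm10. Regions went to the nearest TSS of 21000 protein-coding genes within 100 kb. Shares carry 95% Wilson intervals, which cover counting error only. Differences carry Newcombe intervals widened by Bonferroni's rule over 36 feature or 54 motif comparisons, and one was called where it left out 0. No p-value was computed, because a stage has 1 list.

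Members, motifs and gene lists were chosen with earlier results of these data known. Named genes were the 10 with most members, the listed genes with a member (up to 8 a list), the 10 widest members beyond 2 kb, the sorting markers, and Tead1 to Tead4 with Yap1. Some genes that this rule named are not reported here, although they stay in the counts. Alternatives were other overlaps and windows, deposited intervals, equal or wider lists, stricter absence, other TSSs and reaches, a stricter CpG definition, the central 200 bp, backward motifs, a reach of 50 kb and another ranking. The restriction by GC share was chosen after seeing the data. Steps were tested on simulated data. Analyses used Python 3.11.15 with NumPy 2.4.6, pandas 2.3.3, SciPy 1.17.1 and Matplotlib 3.10.9.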

Additional observations from a re-analysis of the deposited data

How the results depend on the processing

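The 1842 members became 1681 to 2053 under other overlaps and windows, with the deposited intervals, or without regions that an interval of an absent stage overlapped. Limits on the sites moved more. With each list held to its 17734 widest sites, 729 members were left near 655 genes, 56.9% of them promoters and 50.8% CpG-rich. With only sites that reached their list's median width, the values were 931, 853, 63.6% and 56.7%. The promoter share was 49.1% with all annotated transcripts and 37.0% with a reach of 1 kb, and the CpG-rich share 27.2% by the stricter definition.

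The number of motif differences called depended on the setting, and both limits on the sites leave fewer regions. Against MES and HB it was 6, but 0 with the widest sites, 0 with sites above the median and 3 in the central 200 bp. Against MES, HB, HE and HP it was 1, but 0 with deposited intervals, 0 with windows of 1000 bp, 0 above the median and 2 with the widest sites. Neither of the latter was the AP-1 call, which was lost there. Against HB and HE it was 4, but 2 with the widest sites and 2 in the central 200 bp. No called difference changed its sign in 9 settings, and for GATA against HB and HE it ranged from -21.3 to -15.0 points. Ranked among sites beyond 2 kb only, members beyond 2 kb had median width ranks of 51.4 in MES, 52.9 in HB and 44.0 in HE, against 31.7, 34.5 and 31.4 among all sites. No paired analysis was possible because each stage has 1 list.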
